A study of Mus musculus with 12 samples.

Results

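The tumour necrosis factor (TNF) superfamily was followed in chronic aneurysms of the proximal thoracic aorta of mice (cPTAA) and in sham-operated aortas. Its members were taken by symbol: Tnf, Lta, Ltb and every gene whose symbol starts with Tnfsf or Tnfrsf. This gave 36 of the 30130 listed genes, 16 of them ligand rows and 20 receptor rows. RNA from whole proximal thoracic aorta was sequenced in 12 libraries, 7 cPTAA (numbered 2, 3, 4, 6, 7, 9 and 12) and 5 sham (1, 5, 8, 10 and 11). The cPTAA animals had elastase, a protease that degrades elastic fibres, applied around the aorta and received BAPN, an inhibitor of the lysyl oxidases that cross-link collagen and elastin. The sham animals had sham surgery and normal water. All animals were male, of the strain the labels spell C56BL/6J, and ages are not given in the sources used here. No label says which animal a sample came from, so the p-values speak only to the spread among these samples, which may be technical. Elastase and BAPN were given together, so their parts cannot be told apart.

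TNF superfamily ligands are mostly made as membrane proteins that act as trimers, and some are cut free by proteases. Their receptors fall into those with a death domain, which can start cell death, those that bind TRAF adaptor proteins and lead to NF-kB signalling, and decoys that bind ligand without passing a signal. In the arterial wall the family is best known for inflammatory signalling between macrophages, lymphocytes, endothelium and smooth muscle, and for the control of osteoclasts and calcification.

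Values are normalised read counts, that is whole reads divided by one factor per library, in which 1 read was worth between 0.863 and 1.16 units. Group values are means ± SD over 7 cPTAA and 5 sham libraries. Each log2 fold change is the cPTAA mean less the sham mean with its SE, on log2(value + 1), which understates the change of low genes, and adjusted p-values are those of limma over 21415 tested genes. A member is called at an adjusted p under 0.05, and rose or fell is written only of called genes. Depth ranged from 14078885 to 17493428 reads per library. Since whole tissue was sequenced, fewer cells of a type and less RNA per cell cannot be told apart in any value below.

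Of the 15 ligand rows that could be tested, 9 rose in cPTAA and 0 fell, with a median log2 fold change of 2.20. Of the 20 receptor rows, 11 rose and 0 fell, with a median of 0.93. Together 20 of 35 tested members rose, which is 57.1%, where 12.9% of all tested genes were called higher and 11.1% were called lower, and the median of all tested genes was -0.05. For 11 of the 35 members every cPTAA value lay above every sham value, 6 ligand rows and 5 receptors, where 8.02% of all tested genes showed this. No member had every cPTAA value below every sham value, against 4.95% of tested genes. At an unadjusted p under 0.05, 1 member was lower, Tnfrsf25, and edgeR and DESeq2 each called that gene lower. The count of 20 members higher and 0 lower was the same when libraries were scaled by TMM or by library totals. The split over all genes was 2754 higher and 2374 lower, and with library totals 3360 higher and 1830 lower, with the median over all genes then at 0.06.

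**Figure D1:**
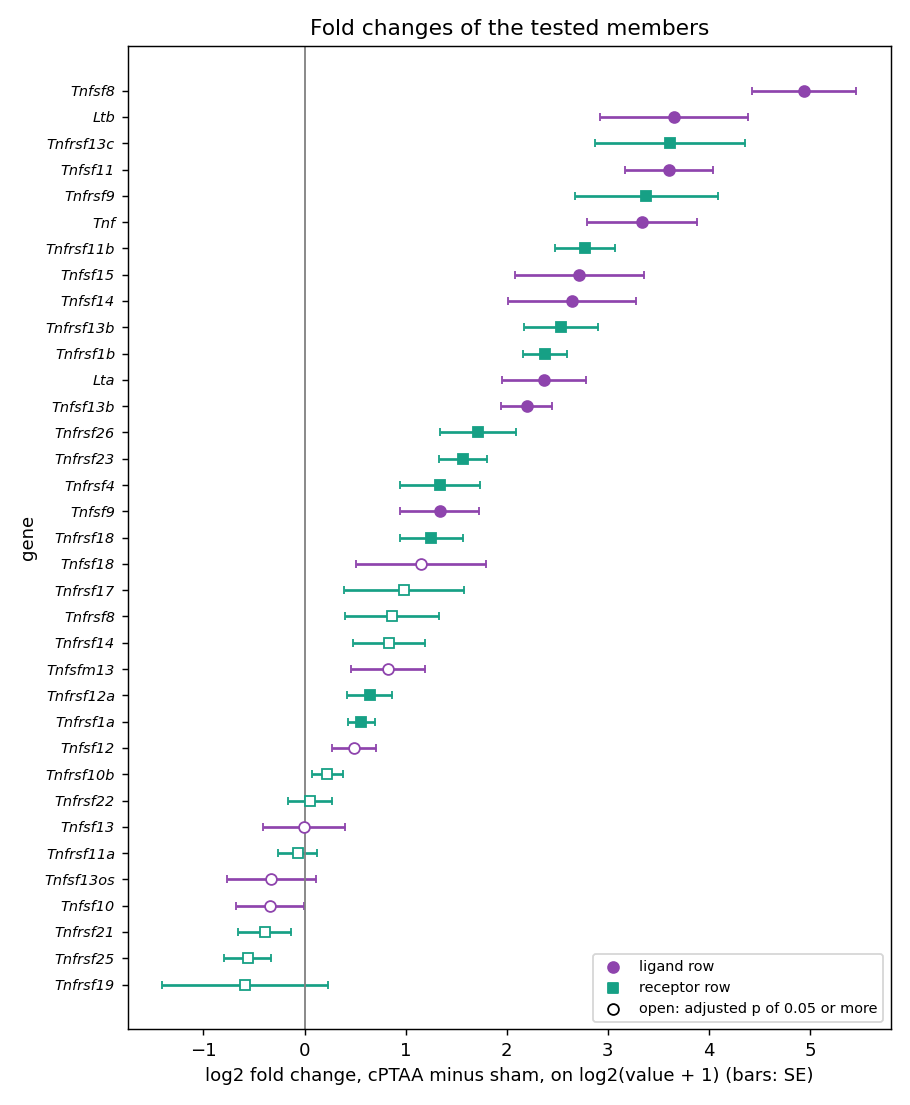
Log2 fold change of the 35 tested members, cPTAA minus sham, with bars for the SE from limma, ligand rows as circles and receptor rows as squares. Filled symbols mark adjusted p under 0.05: 20 members are filled and all of them lie to the right of 0, from Tnfrsf1a at 0.56 to Tnfsf8 at 4.94.

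Markers of many cell types also differed between the groups, though 0 of 3 tested neutrophil markers and 0 of 4 mast cell markers were called. All 7 macrophage markers were called higher, with a summed level of 29451 to 53804 in cPTAA and 4517 to 23769 in sham. All 7 T cell markers were called higher (404 to 1522 against 26.8 to 263), as were all 5 B cell markers (77.7 to 2953 against 13.97 to 96.8) and 4 of 5 dendritic cell markers (422 to 1040.2 against 32.6 to 121). All 3 tested lymphoid stroma markers (1845 to 4375 against 133 to 918) and 3 of 4 NK cell markers (49.8 to 229 against 5.82 to 30.6) were called higher too. So were 3 of 5 plasma cell markers (5947 to 10670 against 2655 to 4888), a list that holds the member Tnfrsf17, and 3 of 5 fibroblast markers (43812 to 95460 against 20110 to 35299). All 6 brown adipocyte markers were called lower (1550 to 41641 against 29566 to 96985), as were 2 of 5 endothelial markers (4777 to 9790.4 against 8156 to 13230) and 2 of 5 white adipocyte markers (25002 to 43065 against 35422 to 66952). None of these markers was at 0 in every sham library, and their part in the results on the family was not tested beyond a fit with a covariate for brown adipocyte markers and the relations within cPTAA given with the pairs. With that covariate 9 of the 35 members were called higher (Tnf, Tnfsf8, Tnfsf9, Tnfsf11, Tnfsf13b, Tnfrsf1b, Tnfrsf11b, Tnfrsf12a and Tnfrsf23), and the other called members were not, where 880 genes were called higher and 520 lower over all genes. The score used as covariate ran from 6.76 to 10.8 in cPTAA and from 10.6 to 12.4 in sham. It thus nearly follows the group, and the parts of group and adipocytes in a lost call cannot be told apart. The smooth muscle markers that define the aortic wall were present in all 12 libraries, with sums of 63369 to 250541 in cPTAA and 198216 to 274481 in sham, and 1 of 5 was called lower. Some libraries stood apart. cPTAA 12 had the lowest smooth muscle sum, 63369 against 127220 to 250541 in the other cPTAA libraries, and the lowest brown adipocyte sum, 1550. The summed cardiomyocyte markers were 17912, 22434 and 117747 in cPTAA 6, 7 and 9 and 1069 to 1504 in the other cPTAA libraries, and 1038 to 6256 in sham. Airway epithelium markers summed to 48417 in sham 8 and to 27.4 to 3994 in the other sham libraries. Without cPTAA 6, 7 and 9 and sham 8, 19 members were called higher, 17 of them among the 20. Over all genes 3481 were then called higher and 3088 lower of 19734 tested.

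Tnf, Lta and Ltb are neighbours on chromosome 17 and encode the founding cytokines of the family: TNF itself, lymphotoxin alpha and the membrane partner lymphotoxin beta. All 3 rose with no overlap between groups, and with the brown adipocyte covariate Tnf kept its call while Ltb (limma adjusted p = 0.132) and Lta (limma adjusted p = 0.0966) lost theirs. The bases in front of their starts are shown because all 3 neighbours were higher in cPTAA than in sham. Those of Tnfrsf9 are shown with them, the only receptor that rose with a match to the kappaB consensus in a listed promoter. Within cPTAA the levels of Tnf, Lta and Ltb did not follow one order: cPTAA 12 was lowest for Tnf and highest for Lta and Ltb, and cPTAA 2 was highest for Tnf and lowest for Ltb. The sequences are from RefSeq on the build GRCm38.p6, 250 bases up to the annotated start on the gene's strand, with matches to the kappaB consensus in capitals. The regions are chr17:35194257-35194506 (plus strand) for Ltb, chr17:35202008-35202257 (minus strand) for Tnf, chr17:35205352-35205601 (minus strand) for Lta and chr4:150927749-150927998 (plus strand, the second of 2 annotated starts) for Tnfrsf9.
Ltb: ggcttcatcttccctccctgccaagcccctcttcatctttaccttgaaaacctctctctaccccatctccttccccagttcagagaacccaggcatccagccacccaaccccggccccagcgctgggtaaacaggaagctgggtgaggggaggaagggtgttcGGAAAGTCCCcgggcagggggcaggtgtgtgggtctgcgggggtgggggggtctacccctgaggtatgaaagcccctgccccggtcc
Tnf: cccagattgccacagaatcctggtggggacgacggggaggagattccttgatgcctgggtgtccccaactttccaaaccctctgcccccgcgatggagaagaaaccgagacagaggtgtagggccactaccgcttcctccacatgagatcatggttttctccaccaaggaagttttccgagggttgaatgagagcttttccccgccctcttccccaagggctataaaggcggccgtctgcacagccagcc
Lta: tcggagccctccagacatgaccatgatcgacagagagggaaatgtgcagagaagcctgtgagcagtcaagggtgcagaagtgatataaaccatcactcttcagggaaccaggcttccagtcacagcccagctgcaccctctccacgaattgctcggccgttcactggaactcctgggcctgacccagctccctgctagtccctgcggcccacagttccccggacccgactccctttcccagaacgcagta
Tnfrsf9: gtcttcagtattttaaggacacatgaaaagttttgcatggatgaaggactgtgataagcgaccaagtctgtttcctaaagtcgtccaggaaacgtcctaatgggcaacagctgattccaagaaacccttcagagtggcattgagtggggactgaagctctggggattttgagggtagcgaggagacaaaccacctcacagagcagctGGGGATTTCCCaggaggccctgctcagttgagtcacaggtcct
The kappaB consensus is a 10-base motif, searched on both strands with overlapping matches allowed, in the 250 bases before and 50 after each start. It was found in 4 of the 32 promoters that the table holds for 28 of the members, 12.5%, and in 2779 of all 32851 promoters, 8.46%. The 4 members were Ltb, Tnfrsf9, Tnfrsf8 and Tnfrsf25, of which Ltb and Tnfrsf9 rose and the other two were not called. The first start of Tnfrsf9 had no match. Of the 17 members with a promoter that rose, 2 held the motif. The Tnf and Lta windows hold no match, which says only that these letters are not in those 300 bases.

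Tnf reached 77.7, 43.1, 59.5, 76.9, 54.1, 63.7 and 5.54 in cPTAA 2, 3, 4, 6, 7, 9 and 12, and 4.22, 4.87, 3.06, 3.26 and 2.33 in sham 1, 5, 8, 10 and 11. cPTAA 12 sat just above the highest sham library, and the other 6 were far above all 5. The means were 54.4 ± 24.8 in cPTAA and 3.55 ± 1.001 in sham, a log2 fold change of 3.34 ± 0.55 (limma adjusted p = 0.00045). Ltb ranged in cPTAA from 58.7 through a median of 161 to 289.8, against 27.4, 31.2, 24.4, 13.0 and 0 in sham. The groups did not overlap, and the means of 177 ± 80.7 and 19.2 ± 12.7 differed by 3.66 ± 0.73 on the log2 scale (limma adjusted p = 0.00197). Lta was much less abundant, from 3.86 through a median of 4.88 to 11.1 in cPTAA against 1.05, 0, 1.02, 0 and 0 in sham. Again every cPTAA library was above every sham library, and limma gave 2.37 ± 0.41 (adjusted p = 0.000741). The sham value rests on 2 reads in all against 47 in cPTAA. The ratio of reads, scaled by the library factors, was 14.9 with a 95% counting interval of 3.91 to 127, which covers counting error only.

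Tnfsf8 (CD30 ligand, found on activated T cells and other leukocytes) had the largest log2 fold change of the 35 tested members. Its cPTAA values ran from 40.2 through a median of 100.1 to 182, and the sham values were 4.22, 2.92, 5.09, 1.09 and 0. No library of one group came near the other, and the log2 fold change was 4.94 ± 0.51 (limma adjusted p = 1.4e-05). Tnfsf13b (BAFF, the survival factor of B cells) ran from 312 through 593 to 710.3 in cPTAA, against 156, 137, 108, 74.9 and 86.1 in sham. It was well separated in all 12 libraries, with means of 527 ± 169 and 112 ± 34.1 and a log2 fold change of 2.20 ± 0.25 (limma adjusted p = 2.92e-05). Tnfsf11 (RANKL, the cytokine that drives osteoclast formation) was 28.5, 28.8, 17.6, 9.86, 12.6, 9.80 and 31.4 in cPTAA 2, 3, 4, 6, 7, 9 and 12, and 1.05, 0, 1.02, 0 and 1.16 in the 5 sham libraries. Every cPTAA library was higher, by 3.60 ± 0.44 on the log2 scale (limma adjusted p = 4.27e-05). Only 3 sham reads stand against 150 in cPTAA, a ratio of 31.8 with a 95% counting interval of 10.7 to 156.

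Another 3 ligands rose with 1 cPTAA library inside the sham range each. Tnfsf14 (LIGHT, a ligand of HVEM and the lymphotoxin beta receptor) ran from 6.76 through 35.997 to 55.2 in cPTAA and was 12.7, 5.84, 7.13, 0 and 4.66 in sham. The low library was cPTAA 7, and the means of 37.6 ± 16.9 and 6.06 ± 4.56 differed by 2.65 ± 0.63 (limma adjusted p = 0.00662). Tnfsf15 (TL1A, a costimulator of T cells made by endothelium and macrophages) ran from 0.980 through 12.8 to 40.6, against 2.11, 0.974, 1.02, 0 and 1.16 in sham. Here cPTAA 9, with 1 read, lay among the sham libraries and the other 6 above them, and the log2 fold change was 2.72 ± 0.64 (limma adjusted p = 0.00614). Sham held only 5 reads of Tnfsf15 against 127 in cPTAA, and DESeq2 gave 3.97. Tnfsf9 (CD137 ligand, a costimulator on antigen-presenting cells) was 26.5 ± 11.9 against 9.38 ± 3.42, a log2 fold change of 1.34 ± 0.39 (limma adjusted p = 0.0229). Its low library was cPTAA 12 at 9.23, against a sham maximum of 13.6, and the gene was no longer called without sham 1, without sham 11, or without cPTAA 6, 7 and 9 and sham 8 together.

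Tnfsf12 (TWEAK) and Tnfsf10 (TRAIL), the ligands with the highest level per kilobase of exon in sham at 124 and 79.6, were not called. Tnfsf12 ran from 200.1 through 223 to 436 in cPTAA, against 133, 211, 199.7, 175 and 223 in sham. The 3 highest libraries were cPTAA 6, 9 and 7, the 3 with the high cardiomyocyte markers, while the other 4 lay within the sham range (0.49 ± 0.22, limma adjusted p = 0.125). Tnfsf10 ran from 190.3 through 284 to 541, against 720.1, 679.8, 232, 239 and 225 in sham. The sham libraries themselves lay apart here, with sham 1 and 5 far above the other three, and the fit gave -0.35 ± 0.34 (limma adjusted p = 0.503). Tnfsf18 (GITR ligand) was 6.04 ± 6.45 against 1.98 ± 2.01 (1.15 ± 0.64, limma adjusted p = 0.219), and without cPTAA 6, 7 and 9 and sham 8 it was called higher (2.11, limma adjusted p = 0.0421). Tnfsf4 (OX40 ligand) had too few values to be tested, with 21 reads over the cPTAA libraries and 0 over sham. Its value was 0 in cPTAA 3 and 7, and highest in cPTAA 9 and 4 at 9.80 and 6.83. Set against a floor of 3 reads over the sham group, the ratio scaled by the library factors was at least 4.45. That bound covers the counting error of the sham reads only, not that of the cPTAA reads or the spread among libraries.

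The rows Tnfsf13 (APRIL), Tnfsf13os (an antisense RNA at that gene) and Tnfsfm13 (the read-through of Tnfsf12 and Tnfsf13) overlap each other and Tnfsf12. A strand setting is not given in the sources used here, so reads could be split among them and each value is uncertain. Tnfsf13 was 19.2 ± 5.95 in cPTAA and 21.2 ± 12.1 in sham, Tnfsfm13 was 25.2 ± 10.3 and 13.2 ± 4.10, and Tnfsf13os was 13.2 ± 6.03 and 17.9 ± 10.99. None of the 3 was called, with limma adjusted p of 0.996, 0.117 and 0.639, and without cPTAA 2 Tnfsfm13 was called higher (1.01, limma adjusted p = 0.0481).

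**Figure D2:**
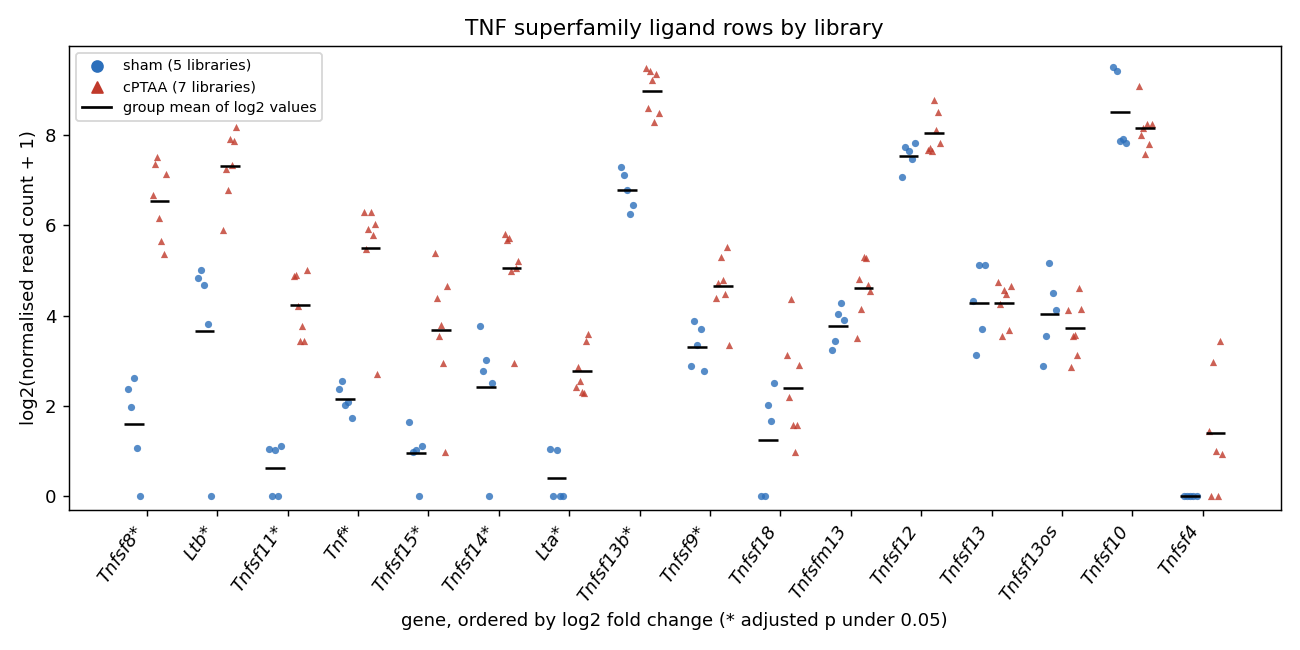
Level of each ligand row, log2(normalised read count + 1), in the 5 sham libraries (blue circles) and the 7 cPTAA libraries (red triangles), with black bars at the group means. For Tnf the single low triangle is cPTAA 12 at 5.54, and for Tnfsf10 the sham points fall into 2 high, at 679.8 and 720.1, and 3 low, between 225 and 239.

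Both receptors for TNF rose, though with the brown adipocyte covariate Tnfrsf1a was no longer called (0.53, limma adjusted p = 0.141). Tnfrsf1a (TNFR1, a death domain receptor on nearly all cells) was 3769, 2652, 2687, 3244, 2394, 2819 and 2921 in cPTAA 2, 3, 4, 6, 7, 9 and 12, and 2279, 2114, 1654, 1807 and 2033 in sham. The ranges came close but did not overlap, and the rise was small, 0.56 ± 0.13 (limma adjusted p = 0.00719). Tnfrsf1b (TNFR2, which lacks a death domain and is mainly found on leukocytes and endothelium) was 2325, 1786, 2057, 1341, 1352, 1177 and 1684 in the same cPTAA libraries, and 449, 393, 337, 208 and 242 in sham. Its lowest cPTAA library exceeded the highest sham library more than its sham libraries differed among themselves, and it rose by 2.38 ± 0.21 (limma adjusted p = 5.59e-06). Its lowest cPTAA libraries were 9, 6 and 7, those with the high cardiomyocyte markers. Within each library the log2 difference of Tnfrsf1b from Tnfrsf1a was -0.83 ± 0.33 in cPTAA (SD, n = 7) and -2.65 ± 0.41 in sham (SD, n = 5). It was greater in all 7 cPTAA than in all 5 sham libraries, by 1.82 (two-sided exact permutation p = 0.00126, the smallest that 7 and 5 libraries allow, adjusted over 6 ratios 0.00758). Without cPTAA 6, 7 and 9 and sham 8 the difference was 2.12, which with only 4 against 4 libraries did not pass after adjustment (exact permutation, adjusted p = 0.0857).

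Tnfrsf11b (osteoprotegerin, the secreted decoy for RANKL and TRAIL) was 3340.2, 4279, 3632, 4601, 3331, 1227 and 2566 in cPTAA 2, 3, 4, 6, 7, 9 and 12, and 743, 341, 552, 347 and 362 in sham. cPTAA 9 was the lowest of its group and still above sham 1, the highest of the other, and the log2 fold change was 2.78 ± 0.30 (limma adjusted p = 1.74e-05). Tnfrsf11a (RANK, the signalling receptor for RANKL) ran from 265 through 415 to 628 in cPTAA and was 494, 485, 473, 428 and 349 in sham, with overlap throughout (-0.07 ± 0.19, limma adjusted p = 0.839). So both the ligand RANKL and its decoy rose, while for RANK the group means were 437 ± 124 and 446 ± 59.8. The within-library log2 difference of Tnfsf11 from Tnfrsf11b was -7.34 ± 0.81 in cPTAA (SD, n = 7) and -8.17 ± 0.46 in sham (SD, n = 5), a change of 0.83 (exact permutation adjusted p = 0.152). That value depends on the few sham reads of Tnfsf11: with a pseudocount of 0.1 in place of 1 the change was 2.57 (exact permutation adjusted p = 0.00758), and without cPTAA 6 it was 1.06 (exact permutation adjusted p = 0.0346). Of the 4 tested osteoclast markers 2 were called higher and 1 lower, with a summed level of 2141 to 3889 in cPTAA and 1849 to 2805 in sham.

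Tnfrsf12a (Fn14, the receptor for TWEAK, induced by injury and growth factors) was 1390.5, 2058, 2429, 2829, 2095, 1526 and 956 in the 7 cPTAA libraries and 1155, 1067, 1181, 1298 and 1053 in sham. cPTAA 12, the library with the lowest smooth muscle markers, lay below all sham libraries and the other 6 above them. Within cPTAA Tnfrsf12a went with the smooth muscle marker score, which did not pass after adjustment (Pearson r = 0.88, exact permutation p = 0.0119, adjusted p = 0.298). Without the 2 libraries farthest from the median score, r was 0.80. The rise of Tnfrsf12a, 0.65 ± 0.22, passed only narrowly (limma adjusted p = 0.0481). It was lost under 12 of the 22 alternatives, among them leaving out any 1 of cPTAA 3, 4, 6 or 7 or any 1 of the sham libraries. The difference of Tnfsf12 from Tnfrsf12a within a library changed by -0.15 (exact permutation adjusted p = 0.604), and by -0.02 to -0.28 when single libraries were left out.

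The 3 receptors for BAFF and APRIL are found on B cells and plasma cells. Tnfrsf13b (TACI) ran from 97.6 through 148 to 275 in cPTAA, against 44.3, 29.2, 33.6, 7.60 and 29.1 in sham. The groups did not overlap (2.54 ± 0.37, limma adjusted p = 0.000171). Tnfrsf13c (BAFF receptor, needed by mature B cells) was 7.77, 27.0, 4.88, 33.5, 49.2, 23.5 and 144 in cPTAA 2, 3, 4, 6, 7, 9 and 12, and 0, 0.974, 6.11, 0 and 2.33 in sham. Values within cPTAA spread widely, with cPTAA 4 below sham 8, and the log2 fold change was 3.61 ± 0.74 (limma adjusted p = 0.00248), on 9 sham reads against 309. cPTAA 12 was highest for both receptors and also had the highest summed B cell markers, 2953 against 77.7 to 683 in the other cPTAA libraries. Over the 7 cPTAA libraries Tnfrsf13c went with the B cell marker score (Pearson r = 0.92, exact permutation p = 0.00655, adjusted p = 0.298, Spearman rho = 0.93, exact permutation p = 0.00675, adjusted p = 0.283, r = 0.87 without the 2 libraries farthest from the median), which did not pass after adjustment. The ligand Tnfsf13b went the opposite way (Pearson r = -0.78, exact permutation p = 0.0262, adjusted p = 0.324, Spearman rho = -0.96, exact permutation p = 0.00278, adjusted p = 0.283, r = -0.79 without the 2 libraries farthest from the median), which did not pass either. With the same score, Pearson r was -0.80 for Tnf (exact permutation p = 0.0175, adjusted p = 0.298) and 0.82 for Ltb (exact permutation p = 0.0262, adjusted p = 0.324). Without those 2 libraries r was -0.24 for Tnf and 0.33 for Ltb. Tnfrsf17 (BCMA, a plasma cell receptor) was near the limit of detection, from 0.966 through 2.94 to 6.46 in cPTAA and 6.33, 0, 0, 2.17 and 0 in sham, and was not called (0.99 ± 0.59, limma adjusted p = 0.254). The within-library difference of Tnfsf13b from Tnfrsf13c changed by -1.41 (exact permutation adjusted p = 0.283), by -2.96 with a pseudocount of 0.1 (exact permutation adjusted p = 0.0833), and by -0.92 without cPTAA 12 (exact permutation adjusted p = 0.357).

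Tnfrsf9 (CD137) ran from 1.93 through 24.9 to 43.1 in cPTAA and was 0, 0, 2.04, 0 and 8.15 in sham. cPTAA 7 lay inside the sham range and the other 6 above it (3.38 ± 0.71, limma adjusted p = 0.00291), on 9 sham reads against 180. Tnfrsf4 (OX40) was 30.1 ± 16.5 against 10.1 ± 2.61 (1.34 ± 0.40, limma adjusted p = 0.0224), a call that was lost without sham 1, without sham 10 and without cPTAA 6, 7 and 9 and sham 8 together. Tnfrsf18 (GITR, high on regulatory T cells) was 43.7 ± 13.3 against 18.1 ± 8.17 (1.25 ± 0.31, limma adjusted p = 0.00858). Of the 3 regulatory T cell markers, 1 was called higher, with sums of 74.9 to 277 in cPTAA and 133 to 169 in sham. Tnfrsf8 (CD30) at 8.04 ± 5.29 against 3.54 ± 1.34 and Tnfrsf25 (DR3, the receptor for TL1A) at 61.3 ± 7.05 against 96.0 ± 41.5 were not called. For Tnfrsf25 the log2 fold change was -0.56 ± 0.23 (limma adjusted p = 0.0959), and edgeR and DESeq2 on the recovered reads gave adjusted p of 0.0493 and 0.0343. Sham 11 stood high for Tnfrsf25 at 169, against 69.2 to 90.1 in the other sham libraries.

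Tnfrsf14 (HVEM, the receptor for LIGHT) ran from 57.2 through 90.8 to 173 in cPTAA and was 55.9, 84.7, 70.3, 21.7 and 45.4 in sham. The groups overlapped and it was not called (0.84 ± 0.36, limma adjusted p = 0.104), though it was with voom (0.99, adjusted p = 0.0407) and without cPTAA 6, 7 and 9 and sham 8 (1.36, limma adjusted p = 0.0201). Its ligand moved further, so the within-library difference of Tnfsf14 from Tnfrsf14 was -1.47 ± 0.84 in cPTAA (SD, n = 7) and -3.28 ± 0.90 in sham (SD, n = 5), a change of 1.81 (exact permutation p = 0.00758, adjusted p = 0.0227). Without cPTAA 6, 7 and 9 and sham 8 the change was 1.99 (exact permutation adjusted p = 0.0857).

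Tnfrsf10b (DR5, the mouse death receptor for TRAIL) ran from 132 through 174 to 211 in cPTAA and was 133, 138, 159.9, 171 and 152 in sham. The overlap was broad (0.22 ± 0.16, limma adjusted p = 0.327), and the difference of Tnfsf10 from Tnfrsf10b changed by -0.57 (exact permutation adjusted p = 0.283), by -0.28 without sham 1 and by -0.31 without sham 5. Tnfrsf22, Tnfrsf23 and Tnfrsf26 form a mouse cluster of close copies, of which Tnfrsf22 and Tnfrsf23 encode decoys for TRAIL, and reads that fit more than one of them make their values uncertain. Tnfrsf23 rose from 64.5 ± 15.4 to 194 ± 56.3 with no overlap (1.57 ± 0.24, limma adjusted p = 0.000251), and Tnfrsf26 rose from 16.6 ± 9.10 to 53.2 ± 18.04 (1.72 ± 0.38, limma adjusted p = 0.00392). Tnfrsf22 was 93.0 ± 24.9 in cPTAA and 87.7 ± 15.3 in sham (0.06 ± 0.22, limma adjusted p = 0.883). Tnfrsf21 (DR6, a death domain receptor) at 256 ± 91.9 against 340.3 ± 144 and Tnfrsf19 (TROY) at 35.6 ± 29.4 against 120.3 ± 218 were not called either. The Tnfrsf19 mean in sham rests on sham 8 at 509, the library with high airway epithelium markers, against 14.1 to 40.7 in the other 4, and without sham 8 the log2 fold change turned from -0.59 to 0.32.

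**Figure D3:**
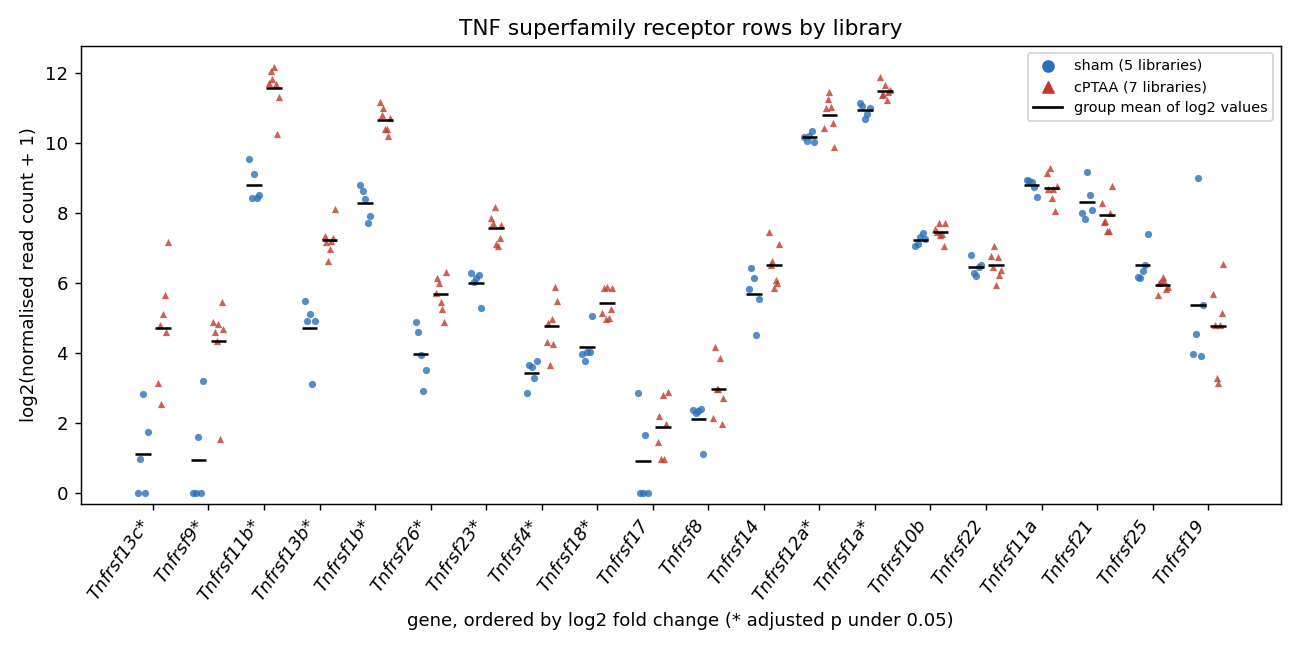
Level of each receptor row, log2(normalised read count + 1), in the 5 sham libraries (blue circles) and the 7 cPTAA libraries (red triangles), with black bars at the group means. The 2 groups of points are fully separate for Tnfrsf11b, Tnfrsf13b, Tnfrsf1b, Tnfrsf23 and Tnfrsf1a, and the lone high sham point of Tnfrsf19 is sham 8 at 509.

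The order of receptors by level per kilobase of exon differed between the groups. In sham it was led by Tnfrsf1a at 763, Tnfrsf12a at 596, Tnfrsf11b at 166 and Tnfrsf1b at 85.3, the last within its spread of Tnfrsf21 at 82.8 and Tnfrsf11a at 74.5. In cPTAA it was led by Tnfrsf11b at 1165, Tnfrsf1a at 1130, Tnfrsf12a at 982 and Tnfrsf1b at 439. There the first 3 lay closer together than the spread of Tnfrsf11b across libraries, so their order is not settled. Among ligands in cPTAA the order was Tnfsf12 at 180, Ltb at 117, Tnfsf13b at 76.7, Tnfsf10 at 56.7, Tnf at 33.2 and Tnfsf8 at 27.9. Lengths are those of another annotation build, so these levels compare genes only roughly.

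The members were then read as ligand and receptor pairs. Of 25 known pairs, 8 had both partners called higher: TNF and lymphotoxin alpha each with Tnfrsf1a and Tnfrsf1b, Tnfsf9 with Tnfrsf9, Tnfsf11 with Tnfrsf11b, and Tnfsf13b with Tnfrsf13b and with Tnfrsf13c. In another 8 pairs only the ligand was called, among them Tnfsf8 with Tnfrsf8, Tnfsf11 with Tnfrsf11a, Tnfsf14 with Tnfrsf14, and Ltb with the lymphotoxin beta receptor gene Ltbr. In 6 pairs only the receptor was called, among them Tnfsf12 with Tnfrsf12a and Tnfsf10 with Tnfrsf11b, and in 3 pairs neither was. The pairs share genes, so these counts are not independent, and that 1 partner was called and the other was not does not show that they differ. For scale, 12.9% of all tested genes were called higher, and pairs of other genes were not counted. With a covariate for brown adipocyte markers, 2 pairs had both partners called.

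**Figure D4:**
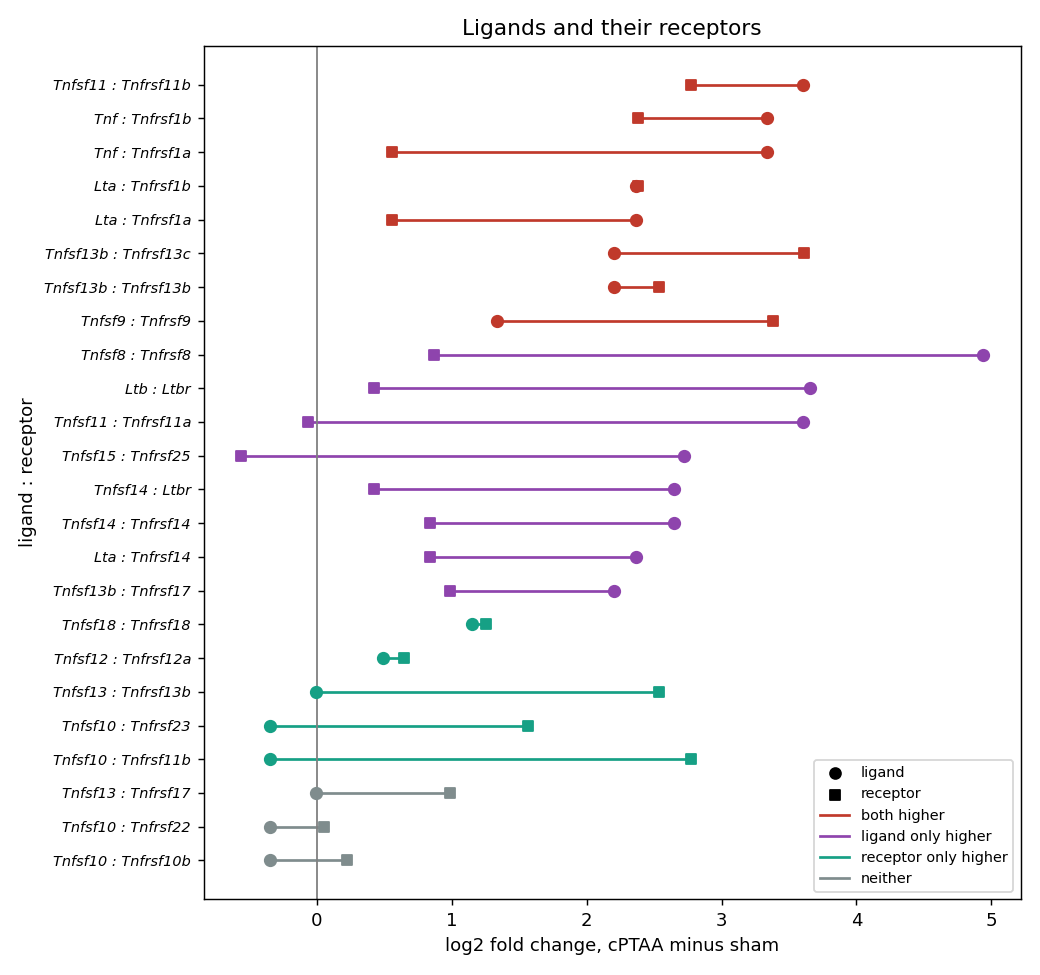
Log2 fold change, cPTAA minus sham, of the ligand (circle) and receptor (square) of the 24 pairs in which both were tested, joined by a line coloured by which partner was called higher. The 8 red pairs have both partners called, and for Tnfsf11 with Tnfrsf11a the ligand sits at 3.60 and the receptor at -0.07.

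Across the 7 cPTAA libraries the partners' levels were compared in the 24 tested pairs, and 0 correlations passed after adjustment. At an unadjusted p under 0.05 there was 1, Tnfsf13b with Tnfrsf13c, in the negative direction (Pearson r = -0.77, exact permutation p = 0.0373, adjusted p = 0.836, Spearman rho = -0.89, exact permutation p = 0.0123, adjusted p = 0.295). Without the 2 libraries farthest from the median of Tnfsf13b, r was -0.57. No cPTAA library was highest for every called member: of the 20, cPTAA 2 and cPTAA 12 were each highest for 6, and cPTAA 7 and cPTAA 9 were each lowest for 6. Levels of the members were also set beside marker scores (means of log2 levels) within cPTAA, 210 relations in all by exact permutation, of which 0 passed after adjustment and 21 had an unadjusted p under 0.05. The cardiomyocyte score was 10.3, 11.3 and 12.7 in cPTAA 6, 7 and 9 and 5.58 to 7.85 in the rest. A pooled correlation with it may reflect that split. The smallest p of the 210 was that of Tnfrsf1b with this score (Pearson r = -0.98, exact permutation p = 0.000992, adjusted p = 0.208). Without the 2 libraries farthest from the median score, r was -0.97.

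**Figure D5:**
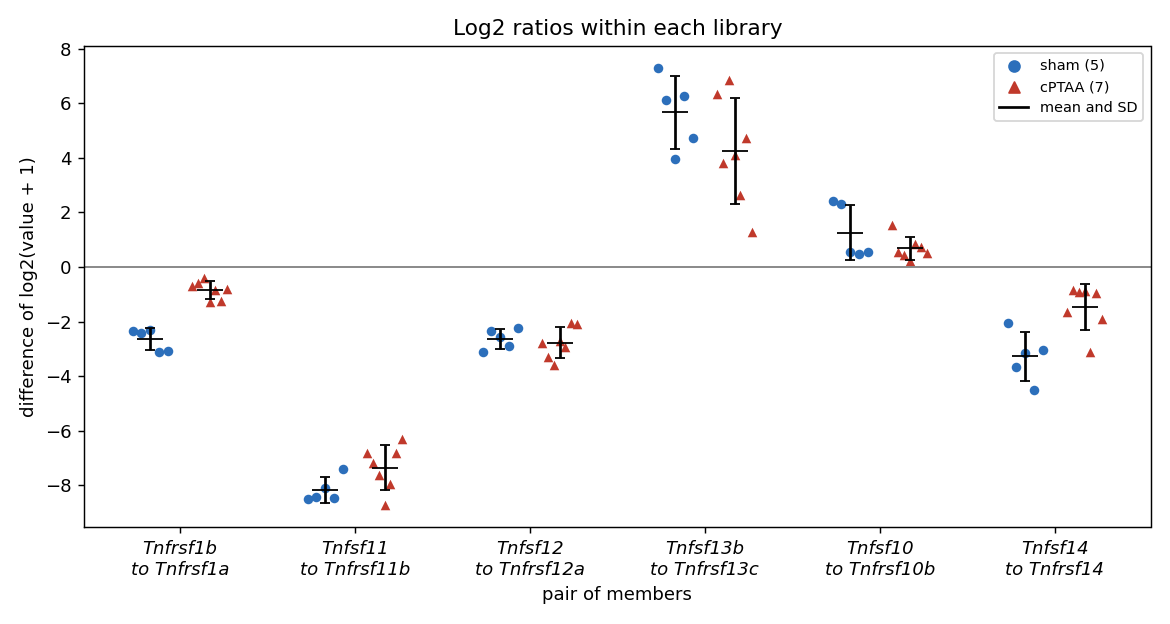
Difference of log2(value + 1) between 2 members within each library, for 6 pairs of members, in 5 sham (blue circles) and 7 cPTAA libraries (red triangles), with the mean and SD in black. The groups are fully separate for Tnfrsf1b to Tnfrsf1a, with means of -0.83 and -2.65, and overlap for the other 5.

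Members of the superfamily with other symbols were counted as a list of their own, of which 11 of 12 were tested. Of these, 7 rose (63.6%, against 12.9% of all tested genes) and 1 fell, with a median log2 fold change of 1.54. Cd40, the costimulatory receptor of B cells and macrophages, rose from 30.6 ± 10.8 to 151 ± 57.0 with no overlap (2.21 ± 0.35, limma adjusted p = 0.000374). Its ligand gene Cd40lg had 26 reads in cPTAA, with 0 in cPTAA 6, and 0 in sham. Against a floor of 3 reads over the sham group the ratio was at least 5.51, a bound that covers the counting error of the sham reads only. Relt, a receptor of lymphoid tissue, rose by 3.08 ± 0.41 (limma adjusted p = 8.61e-05). The death ligand gene Fasl rose by 2.62 ± 0.54 and its receptor gene Fas by 0.42 ± 0.14 (limma adjusted p = 0.0027 and 0.0412, the call of Fas being lost under 11 of the 22 alternatives, among them leaving out cPTAA 3, 4, 6 or 7 or any 1 of the sham libraries), and Cd27, a T and B cell costimulator, by 1.54 ± 0.40 (limma adjusted p = 0.0119). Eda, the ectodysplasin ligand, fell by 0.88 ± 0.23 with every cPTAA value below every sham value (limma adjusted p = 0.0107). Ltbr, which receives Ltb and Tnfsf14, was 908 ± 216 against 684 ± 206 and was not called (limma adjusted p = 0.171). The seventh gene that rose was Edar, named after its value was seen. The count of 7 was 4 with edgeR or with the stricter filter, where Cd40lg and Fasl had too few reads to be tested. It was 3 with the brown adipocyte covariate, under which Cd40lg, Fasl, Cd27 and Eda were among those no longer called.

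Of the 5 genes for release of TNF from the membrane, 2 rose and 0 fell. These were Rhbdf1 (0.63 ± 0.15) and Frmd8 (0.49 ± 0.13), with limma adjusted p of 0.00743 and 0.0131, which help the protease ADAM17 to mature and stay at the surface. Adam17 itself was 0.39 ± 0.19 (limma adjusted p = 0.154), and 0.48 without cPTAA 9 (limma adjusted p = 0.0399), and Rhbdf2 0.12 ± 0.16 (limma adjusted p = 0.633). The list had 4 called under voom, without cPTAA 9 and when 4 libraries (cPTAA 6, 7 and 9, sham 8) were dropped, and 0 under the brown adipocyte covariate. Of 17 receptor adaptors, 3 rose and 1 fell, and the median was 0.24. The share that rose was 17.6%, near the 12.9% of all tested genes called higher. Traf1 rose by 2.01 ± 0.24, Birc3 by 0.88 ± 0.17 and Tradd by 0.67 ± 0.15 (limma adjusted p = 3.58e-05, 0.00193 and 0.00434), the last named after its value was seen. With the brown adipocyte covariate Birc3, Tradd, Rhbdf1, Frmd8 and Traf4 were no longer called. Traf1 and Birc3 are themselves known NF-kB targets, and Tradd is the adaptor of TNFR1. Traf4 fell by 1.18 ± 0.25 (limma adjusted p = 0.00341). Between 2 and 7 adaptors were called higher over the alternatives, with 5 without cPTAA 9 or without cPTAA 12.

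In the cell death arm 7 of 10 genes rose (70.0%, against 12.9% of all tested genes) and 0 fell, with a median of 0.87. Bid, which links death receptors to mitochondria, rose by 2.15 ± 0.21, Casp8, the first caspase of the pathway, by 0.89 ± 0.14, and Ripk3, the kinase of necroptosis, by 1.67 ± 0.28 (limma adjusted p = 1.06e-05, 0.000283 and 0.000566). With the brown adipocyte covariate Ripk3 (0.93, limma adjusted p = 0.148), Map3k14 (limma adjusted p = 0.188) and Tnfaip3 (limma adjusted p = 0.22) were no longer called. In the NF-kB arm 7 of 20 rose (35.0%) and 1 fell, with a median of 0.25. The IkB family genes Nfkbie and Nfkbid rose by 2.27 ± 0.18 and 2.61 ± 0.40 (limma adjusted p = 2.8e-06 and 0.00026). Nfkbia, of the same family and named after its value was seen, was not called (1410 ± 602 in cPTAA against 1320 ± 315 in sham, 0.05 ± 0.23). Map3k14, which encodes the kinase NIK of the non-canonical arm used by BAFF, CD40 and lymphotoxin beta receptors, rose by 1.13 ± 0.20 (limma adjusted p = 0.000778), and Chuk, the kinase below it, fell by 0.35 ± 0.12 (limma adjusted p = 0.042), a call that was lost under 15 of the 22 alternatives, among them leaving out cPTAA 2, 3, 6, 7 or 12 or any 1 of the sham libraries. Of 8 brakes on NF-kB, 4 rose: Tnip3 by 3.70 ± 0.49, Tnfaip3 (A20) by 1.09 ± 0.21, Tnip1 by 0.34 ± 0.11 and Tnip2, named after its value was seen, by 0.33 ± 0.11. Their limma adjusted p were 8.66e-05, 0.00169, 0.0314 and 0.0469, and the calls of Tnip1 and Tnip2 were lost under 8 and 13 of the 22 alternatives, among them leaving out sham 5, 8, 10 or 11 or cPTAA 2.

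Of 20 tested genes that TNF is known to induce, 15 rose (75.0%) and 1 fell, with a median of 1.36. The 3 with the smallest p were the monocyte chemokine gene Ccl2 (489 ± 289 against 25.5 ± 10.4, 4.06 ± 0.46), the adhesion molecule gene Vcam1 (1.996 ± 0.19) and the neutrophil chemokine gene Cxcl2 (3.75 ± 0.46), with limma adjusted p of 2.59e-05, 6.71e-06 and 4.75e-05. Sod2, the mitochondrial superoxide dismutase, fell by 1.14 ± 0.34 (limma adjusted p = 0.025), a call that was lost without sham 1, sham 10 or sham 11 and whose sign turned with the brown adipocyte covariate (0.36). These genes respond to many other signals, and the lists together hold 45 called higher and 4 lower of 91 tested, 49.5% higher against 12.9% of all tested genes.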

How the data were processed

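RNA of 7 cPTAA and 5 sham aortas was sequenced after oligo-dT capture and random-hexamer priming, per the labels' protocols. The submitters' processing notes name the aligner HISAT2 2.0.5, the counter featureCounts 1.5.0-p3, StringTie and the build GRCm39. The strand setting, scaling and filters are not given in the sources used here. The authors deposited one signal value for each gene and library, called a normalised read count here. Of the values, 100% were whole reads within 0.02 reads once each library's factor was found. The recovered totals averaged 16.2 ± 0.879 M for the 7 cPTAA libraries and 15.7 ± 1.20 M for the 5 sham libraries (SD).

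Groups came from the sample titles. Because the values are normalised, log2(value + 1) was fitted with limma 3.58.1 under R 4.3.3, with the trend option. Genes needed a value of at least 1 in 5 or more libraries, which left 21415, and p-values were adjusted over all of these by Benjamini-Hochberg, with a threshold of 0.05. Ratios within a library used a two-sided exact permutation test. Alternatives were edgeR 4.0.16, which called 2622 genes higher and 2261 lower of 15839 on the recovered reads, DESeq2 1.42.0, voom, TMM or library-total scaling, a pseudocount of 0.1, other filters, a brown adipocyte covariate and leaving out each library. A simulated comparison of cPTAA and sham, with 200 genes altered, served as a check. At a 2-fold change 29% of the altered genes were called, and 9.38% of the calls were false. At a 4-fold change 76.5% were called, and 6.13% of the calls were false. Each share of false calls lay above the threshold, but in a single run with 64 and 163 calls. In the data 2754 genes were called higher and 2374 lower, far more than the 200 altered. The adjustment is less strict with more calls, so the shares called in the simulation do not carry over to the data. A gene that was not called may still differ between the groups. Intervals of read ratios cover counting error only.

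The members, pairs and gene lists were chosen with earlier results of these data known. All members are named. Every sham value and the lowest, median and highest cPTAA value, or all of them, are given for 16 members of the main ligand and receptor pairs and the 10 largest called changes. Of each pathway list the 3 genes with the smallest p, the falls where 3 or fewer fell, and a panel of 11 genes are named. The airway epithelium markers, the relations of members with markers, and the fit without cPTAA 6, 7 and 9 and sham 8 were chosen after seeing the data. Exon lengths by symbol came from GENCODE M21 (36 of 36 members) and promoters from RefSeq on GRCm38.p6 (28 of 36 members), both of another build than the files, so no other coordinates are printed.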

Additional observations from a re-analysis of the deposited data

Results flagged for a closer look

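Of 70 groups of values, the 7 cPTAA or the 5 sham values of a member, 9 had a highest or lowest library that stood far from the rest by Dixon's test. Chance flags about 1 in 20 if values are normally distributed. The values were tested without a log transform, so chance may flag more. In cPTAA, Tnfrsf13b at 275 (others 97.6 to 161) and Tnfrsf13c at 144 (others 4.88 to 49.2) stood high in cPTAA 12, the library with the highest B cell markers. Tnfsf10 stood high in cPTAA 2 at 541 (others 190.3 to 301) and Tnfsf18 in cPTAA 4 at 19.5 (others 0.966 to 7.77). In sham, Tnfrsf19 stood high in sham 8 at 509 (others 14.1 to 40.7). The other 4 were all in sham 11: Tnfrsf18 at 32.6 (others 12.7 to 15.3), Tnfrsf25 at 169 (others 69.2 to 90.1) and Tnfrsf9 at 8.15 (others 0 to 2.04) stood high, and Tnfrsf8 at 1.16 (others 3.90 to 4.34) stood low.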

How the results depend on the processing

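Of the 20 members called higher, 7 kept the call under each of the 22 alternatives that gave a value: Tnf, Tnfsf8, Tnfsf11, Tnfsf13b, Tnfrsf1b, Tnfrsf11b and Tnfrsf23. A further 10 (Lta, Ltb, Tnfsf14, Tnfsf15, Tnfrsf1a, Tnfrsf9, Tnfrsf13b, Tnfrsf13c, Tnfrsf18 and Tnfrsf26) lost it only with a brown adipocyte covariate, which left 5 ligand rows, 4 receptors and 2 pairs called higher, 24 pathway genes higher and 0 lower, and 880 genes higher and 520 lower in all. Tnfrsf12a, Tnfrsf4 and Tnfsf9 lost it under 12, 4 and 3 alternatives. That covariate also turned the sign of Tnfrsf10b (-0.061), Tnfrsf14 (-0.10), Ltbr (-0.011) and Sod2 (0.36). Its scores nearly follow the group, so the parts of group and adipocytes in these losses cannot be told apart. Receptors called lower went from 0 to 1 with edgeR and with DESeq2. Pathway genes called lower ranged from 2 to 4 when single libraries were left out. The change of Tnfsf11 relative to Tnfrsf11b ranged from 0.65 to 1.06 without single libraries and was 2.57 with a pseudocount of 0.1. Without cPTAA 6, 7 and 9 and sham 8 the changes of Tnfrsf1b to Tnfrsf1a (2.12) and Tnfsf14 to Tnfrsf14 (1.99) did not pass after adjustment, with only 4 against 4 libraries. Uncalled members near 0 changed sign: Tnfsf13 with voom (0.25), TMM (0.018), library totals (0.11), a pseudocount of 0.1 (0.0038) and without the 4 libraries (0.23), and from -0.29 to 0.21 without single libraries; Tnfrsf11a with voom (0.078), library totals (0.056) and without the 4 libraries (0.20), and from -0.16 to 0.045 without single libraries; Tnfrsf19 from -0.95 to 0.32 without single libraries and 0.63 without the 4; Tnfrsf21 without the 4 (0.032); Tnfrsf22 from -0.038 to 0.15 and Rhbdf2 from -0.026 to 0.21 without single libraries. Where no value shows it, the cause was not tested. Depth limits the members with fewer than 10 sham reads: Lta, Tnfsf4, Tnfsf11, Tnfsf15, Tnfsf18, Tnfrsf9, Tnfrsf13c and Tnfrsf17. No paired analysis was possible because the groups share no replicate number.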
